A study of Mus musculus with 28 samples.

Results

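The genes described here encode the subunits of respiratory chain complexes I, III and IV and of complex V, the ATP synthase. They were taken by symbol as the protein-coding genes of the count table whose mouse gene symbol starts with Ndufa, Ndufb, Ndufc, Ndufs, Ndufv, Uqcr, Cox4, Cox5, Cox6, Cox7, Cox8, Atp5 or mt-, with the Ndufaf assembly factors left out. The rule gave 95 of the 54532 genes listed, of which 82 are encoded in the nucleus (38 for complex I, 8 for complex III, 18 for complex IV and 18 for complex V) and 13 by mitochondrial DNA (7, 1, 3 and 2). RNA had been sequenced from 28 cultures of bone marrow derived macrophages (BMDMs), which are mouse bone marrow cells grown into macrophages with M-CSF. All cultures received fresh medium with 1 mM CaCl2. For 3.5 h or 16 h they were then kept with PBS (Control), with plasma-derived von Willebrand factor at 10 μg/ml (pd-VWF, here VWF) or with bacterial lipopolysaccharide at 100 ng/ml (LPS), with 5 Control, 5 VWF and 4 LPS cultures at each time. The labels give no strain, age or genotype, and call the cultures biological replicates without tying them to separate mice, so p-values measure the spread between these cultures.

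Complex I takes electrons from NADH and complex III passes them to cytochrome c, while complex IV hands them to oxygen. The protons moved on the way drive the ATP synthase. Mitochondrial DNA encodes a small core of the subunits, transcribed as long strands that are cut into single mRNAs, and all others are nuclear genes translated in the cytosol and imported. Macrophages stimulated with LPS are known to shift from respiration towards glycolysis.

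Levels are given as CPM, the counts of a gene on a common scale of library size. That scale was set by TMM, a method that aligns the bulk of genes between libraries. Fold changes are log2 values with their standard error (SE) from edgeR's quasi-likelihood test, fitted to the cultures of each comparison, and a gene was called at a Benjamini-Hochberg adjusted p under 0.05 over all genes tested. Genes that reached 10 TPM (a level per transcript length) in any culture compared were tested, which was the case for 83 to 85 of the 95 genes. Never tested were mt-Atp8, Ndufa4l2, Ndufb2, Cox4i2, Cox6b2, Cox7b2, Cox8b, Cox8c, Atp5s and a second gene named Atp5o, of which Cox7b2 and Cox8c had 0 counts in every culture. The libraries held 41131209 to 77699206 counts, of which the mitochondrial genes took 0.212% to 1.07% and the nuclear genes 0.677% to 1.93%. The macrophage markers summed to 5981 to 26588 CPM per culture, and the defining genes of neutrophils, T cells, B cells, NK cells, mast cells and erythroid cells to at most 38.7 CPM. Fibroblast markers summed to 16.8 to 394 CPM and the megakaryocyte and platelet list to 276 to 1323 CPM. The dendritic cell markers averaged 16.2 and 25.0 CPM with VWF and LPS at 3.5 h against 1.63 CPM in Control, and at 16 h 2.18 and 21.2 CPM against 0.985 CPM. At 16 h the macrophage markers averaged 14408 CPM in Control, 23870 CPM with VWF and 13668 CPM with LPS, and the megakaryocyte and platelet list 849, 929 and 443 CPM. Single genes made up most of 2 of these sums. Of the dendritic cell markers, Xcr1 reached 29.3 CPM, and Zbtb46, Siglech and Flt3 at most 3.48, 0.514 and 0.209 CPM. Of the platelet list, Pf4 held 273 to 1320 CPM, and Ppbp, Itga2b and Gp9 at most 11.9, 2.65 and 0.0938 CPM. The part of these markers in the results below was not tested. In bulk RNA, fewer cells of a kind and less RNA per cell cannot be told apart.

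On the TPM scale, mt-Co1, the catalytic subunit of complex IV, had the highest mean of all members over the 28 cultures, 5156 ± 2499 TPM (SD, n = 28). The highest nuclear genes were Cox6a1 (1375 ± 394 TPM) and Cox4i1 (1160 ± 292 TPM) of complex IV. The range over cultures of mt-Co1, 811 to 12050 TPM, was wide, and it overlapped those of mt-Nd6 and of Cox6a1. mt-Nd6 exceeded mt-Co1 in LPS replicates 1, 3 and 4 at 3.5 h and in Control replicate 5, VWF replicate 4 and LPS replicate 4 at 16 h, by 9114 against 1191 TPM in that Control culture. Where a subunit has isoforms, those known from muscle or testis were scarce beside their common partners. Cox6a2, the heart and muscle form, stayed between 0.423 and 5.32 CPM in every culture, whereas Cox6a1 was above 300 CPM in each Control culture at 16 h.

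Not all mitochondrial genes can be counted cleanly. Nuclear copies of mitochondrial DNA, the longest on chromosome 1, shared nearly all 150-base stretches of mt-Co3 (99.8%), mt-Co2 (99.4%), mt-Atp6 (99.4%), mt-Nd4l (98.0%) and mt-Nd3 (97.0%), and part of mt-Nd4 (59.2%) and mt-Co1 (23.6%). The share was 0 for mt-Nd1, mt-Nd2, mt-Nd5, mt-Nd6 and mt-Cytb. How reads with several matches were treated is not given in the sources used here, and the values of mt-Co2, mt-Co3, mt-Atp6, mt-Nd4l and mt-Nd3 are uncertain for that reason. The low level of mt-Co2, 12.5 to 32.1 CPM against 734 to 5273 CPM for mt-Co1, stood beside that sharing.

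The first comparison asked what each stimulus had done to these genes after 3.5 h. None was called with VWF, but this depended on the fit. With a covariate for short genes, described below and chosen after the data were seen, 16 nuclear genes were called (13 higher, 3 lower) and 1 mitochondrial gene (higher), and with library size alone in place of TMM 4 nuclear genes and 1 mitochondrial gene, all lower. Of all 8200 genes tested, the covariate fit called 5168 and library size alone 4326, against 3576 in the reported fit. The summed level of the 82 nuclear genes in the 5 Control cultures was 9400, 8980, 9719, 6134 and 7632 CPM, and in the 5 VWF cultures 7337, 8766, 10317, 9854 and 6752 CPM, so that the groups lay over each other. Among all genes tested, 43.6% were called in this comparison (edgeR, adjusted p), 22.3% higher and 21.3% lower, against 0 of 72 nuclear and 0 of 12 mitochondrial members tested. At an unadjusted p under 0.05, 2 nuclear members and 0 mitochondrial ones passed, and DESeq2 called 2 nuclear members. The median log2 fold change was 0.03 over the nuclear and 0.04 over the mitochondrial genes, against -0.01 over all genes tested. The member closest to the threshold was Ndufs8, an iron-sulfur subunit of complex I, with a log2 fold change of -0.34 ± 0.15 (SE, adjusted p = 0.0925).

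LPS at 3.5 h gave a different picture. Nuclear subunits of all 4 complexes were higher than in Control by less than 2-fold, whereas most mitochondrial genes did not pass the test. The summed nuclear level was 13140, 9561, 11772 and 12322 CPM in the 4 LPS cultures, of which 3 lay above every Control culture and 1 below the highest. Of 72 nuclear genes tested, 45 rose and 1 fell, none of them by 2-fold (24.5% of all genes were called at that size). Of all genes tested, 65.7% were called, 31.8% higher and 33.9% lower. The 45 higher members were 20 of 36 in complex I, 5 of 8 in complex III, 9 of 12 in complex IV and 11 of 16 in complex V, with median log2 fold changes of 0.48, 0.44, 0.65 and 0.51 over the members tested. Ndufa4 is counted with complex I by its symbol, here and in the other counts by complex. In 12 genes every LPS culture lay above every Control culture and in 1 below, where this held for 26.1% and 30.2% of all genes.

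**Figure D1:**
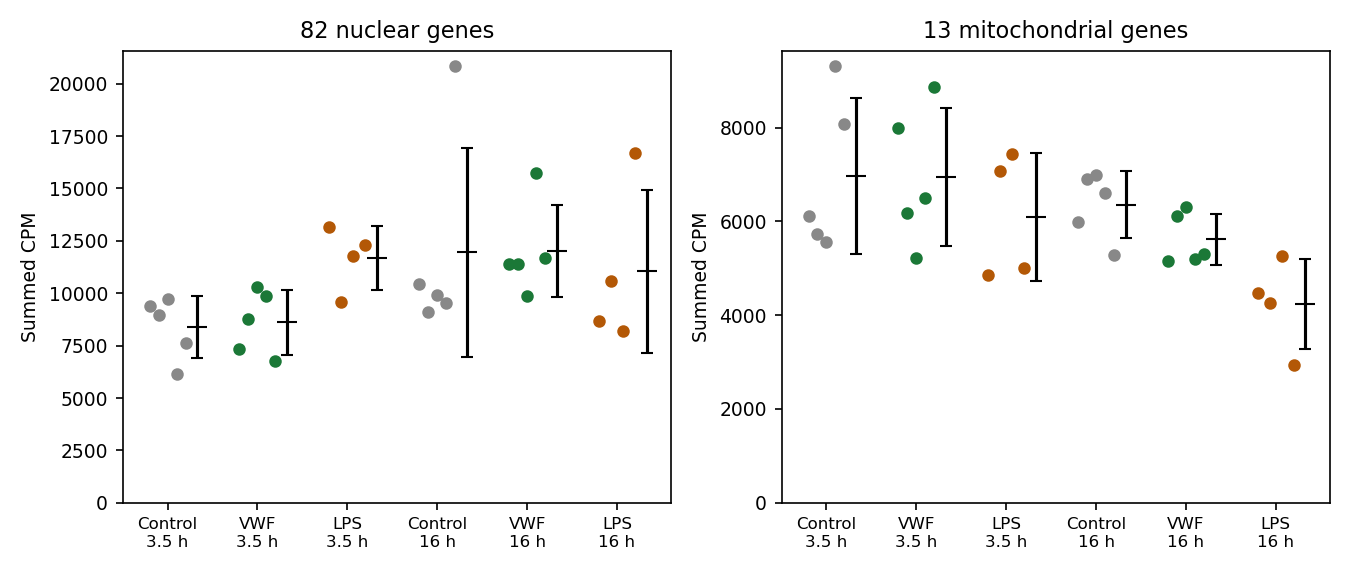
Summed CPM of the 82 nuclear genes (left) and the 13 mitochondrial genes (right) in each of the 28 cultures. Each point is 1 culture, and the bar beside each group is its mean ± SD. The LPS cultures at 3.5 h lie high for the nuclear genes, 1 Control culture at 16 h lies at 20838 CPM, and the mitochondrial sum is lowest in an LPS culture at 16 h, with 2948 CPM.

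The largest rises whose cultures lay apart from Control were those of Ndufa11, Cox7c and Cox6b1. Ndufa11, a membrane subunit of complex I, was at 48.8, 41.7, 45.9, 30.1 and 33.9 CPM in Control and at 82.7, 50.9, 71.0 and 72.9 CPM with LPS. Its log2 fold change was 0.81 ± 0.17 (adjusted p = 0.00188). Cox7c, a small subunit of complex IV, went from 254, 223, 237, 108 and 167 CPM to 471, 254, 334 and 309 CPM, with a log2 fold change of 0.80 ± 0.25 (adjusted p = 0.0156). Here the lowest LPS culture lay only just above the highest Control culture, and without LPS replicate 1 the call was lost (0.61, adjusted p = 0.0591). Cox6b1, another subunit of complex IV, had a log2 fold change of 0.80 ± 0.20 (adjusted p = 0.00482).

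Ndufs1, the largest subunit of complex I and the carrier of several iron-sulfur clusters, was the 1 nuclear member that fell. It stood at 56.6, 54.0, 56.3, 58.0 and 58.9 CPM in Control and at 48.4, 46.3, 48.5 and 49.3 CPM with LPS. The groups did not overlap, and the log2 fold change was -0.22 ± 0.07 (adjusted p = 0.0141), with the call lost without Control replicate 5 (-0.19, adjusted p = 0.0635). Of the mitochondrial genes, mt-Nd6, the complex I subunit encoded on the opposite strand from the other mRNAs, rose most. How strand was used in counting is not given, so reads from the transcript of the opposite strand cannot be told apart from those of this gene. It was at 632, 566, 612, 487 and 526 CPM in Control and at 1185, 722, 1219 and 882 CPM with LPS, with no overlap, and its log2 fold change was 0.85 ± 0.16 (adjusted p = 0.000753). mt-Nd3, mt-Co2 and mt-Co3 rose by 0.79, 0.58 and 0.43 on the log2 scale, with calls kept in 9, 7 and 6 of 9 fits that left out 1 culture. The median over the 12 mitochondrial genes tested was -0.05, and mt-Co1 had a log2 fold change of -0.47 ± 0.27 (adjusted p = 0.148).

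The size of the nuclear rise differed with the scaling, and genes of like length had moved too. The nuclear members are short, with a median of 1569 exon bases against 4174 over the protein-coding genes at 10 TPM. Over the 550 tested genes under 1500 bases that are no members, the median log2 fold change between LPS and Control at 3.5 h was 0.39, with 44.4% called higher, and over genes of 6000 bases or more it was -0.15. A covariate was added to the fit after the data were seen, each culture's deviation of short genes outside the members less that of long ones. With it, 12 nuclear members were called higher and 3 lower, and with library size alone in place of TMM, 0 were higher and 13 lower. Of all 8190 genes tested, the covariate fit called 4986 and library size alone 6269. Under library size alone, the median over all genes moved to -0.54 and the log2 difference of the summed nuclear level to -0.01, so relative to the other genes the members stayed high, while their direction on the plain scale did not hold. Leaving out LPS replicate 1 left 25 nuclear calls and leaving out Control replicate 3 gave 55.

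**Figure D2:**
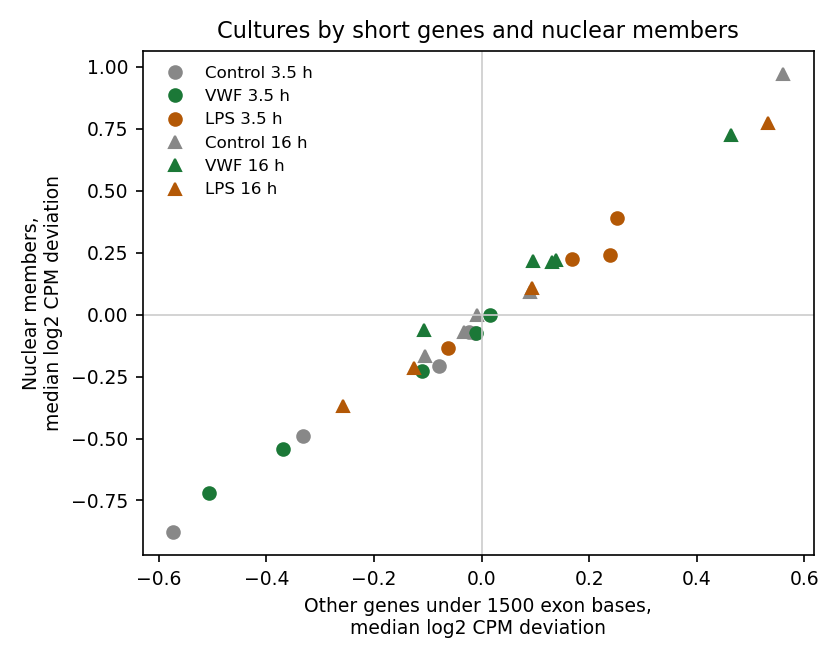
Deviation of each culture's median log2 CPM over other genes under 1500 exon bases (x axis) and over the nuclear respiratory chain and ATP synthase genes (y axis), relative to the middle of all 28 cultures. Circles are 3.5 h and triangles 16 h. The values of the cultures rise together, from -0.57 and -0.88 in a Control culture at 3.5 h to 0.56 and 0.97 in a Control culture at 16 h.

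Within the groups the same cultures were high or low for both kinds of gene. The lowest culture was the same for short genes and nuclear members in 6 of 6 groups and the highest in 5 of 6. Cultures of all 6 groups took part in this pattern, and what made it was not tested.

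Set directly against each other at 3.5 h, VWF and LPS cultures differed at 45 of 72 nuclear members tested, 1 higher and 44 lower with VWF (50.2% of all genes tested were called, 26.3% higher and 24.0% lower). Large differences without overlap were in Atp5k, an accessory subunit of the ATP synthase, and Ndufa5, in the arm of complex I outside the membrane. Atp5k had 43.5, 39.9, 56.8, 54.5 and 29.1 CPM with VWF and 108, 66.0, 78.1 and 70.5 CPM with LPS, for a log2 fold change of -0.83 ± 0.20 (adjusted p = 0.00684). The log2 fold change of Ndufa5 was -0.76, and Ndufs1 was higher with VWF by 0.21. Of 11 mitochondrial genes tested, mt-Nd6 (-0.66) and mt-Co2 (-0.48) were lower with VWF. These LPS cultures are the same as above, and the short genes outside the members had a median of -0.36. Without LPS replicate 1 the count fell to 6, with the short-gene covariate to 1, and with library size alone it was 6, of which 5 were higher with VWF. Of all genes tested, these fits called 3153 of 7472, 3103 of 7500 and 4648 of 7500.

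**Figure D3:**
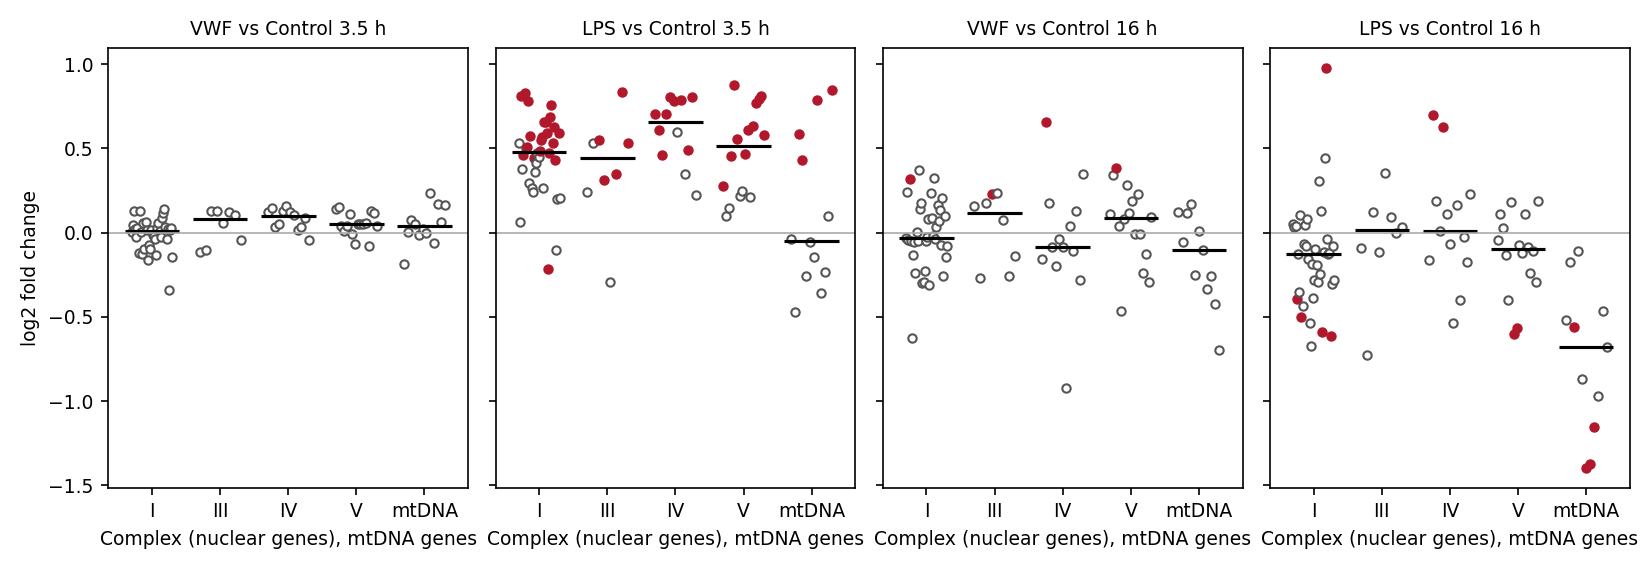
Log2 fold change of every member tested in 4 comparisons with Control, for the nuclear genes of complexes I, III, IV and V and the genes of mitochondrial DNA (mtDNA). Each point is 1 gene, filled where the adjusted p was under 0.05, and bars are medians. With LPS at 3.5 h all 4 nuclear medians lie between 0.44 and 0.65, and with LPS at 16 h the mtDNA median lies at -0.68.

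After 16 h few nuclear genes were called with either stimulus. The median SE over the nuclear members tested was 0.24 with VWF and 0.33 with LPS at 16 h, against 0.19 and 0.18 at 3.5 h. For LPS, fewer nuclear calls than at 3.5 h therefore do not by themselves show smaller changes. With VWF, 4 of 73 nuclear members were higher than Control, none was lower, and 0 of 11 mitochondrial genes were called. At an unadjusted p under 0.05 there were 7 nuclear and 0 mitochondrial genes, and DESeq2 called 7 nuclear members. Of all genes tested, 27.7% were called in this comparison, 13.1% higher and 14.7% lower. The 4 genes fall in 4 different complexes.

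Atp5c1 encodes the gamma subunit, the rotating shaft of the ATP synthase. It was at 188, 194, 200, 192 and 151 CPM in Control and at 226, 236, 231, 265 and 256 CPM with VWF, so every VWF culture was above every Control culture. The log2 fold change was 0.38 ± 0.10 (adjusted p = 0.0129), and the gene was called in all 10 fits that left out 1 culture. At 3.5 h its log2 fold change with VWF had not been called, and the difference between both times passed the test (0.37 ± 0.13, adjusted p = 0.036), as it did in 11 of 20 fits that left out 1 culture. Ndufa12, an accessory subunit of complex I, rose by 0.32 ± 0.10 (adjusted p = 0.0399). Its VWF cultures, at 73.9, 76.8, 67.7, 99.0 and 70.6 CPM, were all above the highest Control culture, at 66.2 CPM. Uqcrc1, a core protein of complex III, rose by 0.23 ± 0.07 (adjusted p = 0.0309) from between 201 and 210 CPM to between 230 and 277 CPM. Of the 10 fits that left out 1 culture, 4 kept the call of Ndufa12 and 5 that of Uqcrc1.

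Cox5a, a structural subunit of complex IV, had the largest of the 4 changes, 0.65 ± 0.16 (adjusted p = 0.013). It was at 132, 110, 123, 127 and 207 CPM in Control and at 195, 220, 199, 274 and 218 CPM with VWF. Because Control replicate 5 lay inside the VWF range, the groups overlapped and Cox5a was not among the genes the naming rule gives, so it is named after its values were seen. The same gene was also higher with LPS at 16 h, at 173, 219, 168 and 324 CPM (log2 fold change 0.70 ± 0.25, adjusted p = 0.0401). Both comparisons share the Control cultures.

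Control replicate 5 at 16 h bears on these counts. Its summed nuclear level was 20838 CPM against 9121 to 10420 CPM in the other 4 Control cultures, and its median deviation of other short genes, 0.56, was the highest of all 28. Without it, 21 nuclear genes were called higher with VWF, none lower, and 2 mitochondrial genes lower. With the short-gene covariate, 12 nuclear genes were higher and 11 lower. Of all genes tested, 3282 of 7696 were called without that culture and 4259 of 7798 with the covariate. In the reported fit it was 2163 of 7798.

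Mitochondrial transcripts for complex I were among the genes that fell with LPS at 16 h. All 11 genes tested had negative log2 fold changes, with a median of -0.68 against -0.03 over all genes tested, and 4 of the 11 were called lower, where 53.7% of all genes were called, 27.3% higher and 26.4% lower. Past 2-fold were 3 of the 11, and 27.6% of all genes. The summed mitochondrial level was 5993, 6903, 6992, 6608 and 5280 CPM in Control and 4484, 4251, 5274 and 2948 CPM with LPS. Every LPS culture was below every Control culture, the highest LPS culture by a small margin.

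mt-Nd1 and mt-Nd2, which lie next to each other behind the ribosomal RNA genes on the mitochondrial genome (GRCm38, chrM:2751-3707 and chrM:3914-4951) and encode membrane subunits of complex I, fell most. mt-Nd1 was at 906, 983, 1008, 897 and 410 CPM in Control and at 321, 333, 412 and 180 CPM with LPS. Control replicate 5 alone lay inside the LPS range, and the log2 fold change was -1.40 ± 0.31 (adjusted p = 0.0038). For mt-Nd2 the values were 354, 388, 374, 355 and 264 CPM in Control and 136, 135, 172 and 79.6 CPM with LPS, with no overlap, and the log2 fold change was -1.37 ± 0.21 (adjusted p = 0.000446). Both remained called in all 9 fits that left out 1 culture. Neither gene shares a 150-base stretch with a nuclear copy.

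mt-Nd3, the subunit at the joint of the complex I arms, was the third member past 2-fold (log2 fold change -1.16 ± 0.36, adjusted p = 0.0216), at low levels of 3.66 to 7.69 CPM in Control and 1.43 to 3.68 CPM with LPS. Its call was lost without LPS replicate 1, 2 or 3. mt-Co2, the subunit of complex IV that takes electrons from cytochrome c, was called at -0.56 ± 0.12 (adjusted p = 0.00246) with groups apart. mt-Cytb, the only subunit of complex III in mitochondrial DNA, had -0.87 ± 0.37 (adjusted p = 0.0751). By contrast, mt-Co1 was at 2567, 3150, 3206, 3219 and 883 CPM in Control and 2783, 2347, 3146 and 734 CPM with LPS, for a log2 fold change of -0.17 ± 0.46 (adjusted p = 0.776). In each group 1 culture lay far below the others.

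**Figure D4:**
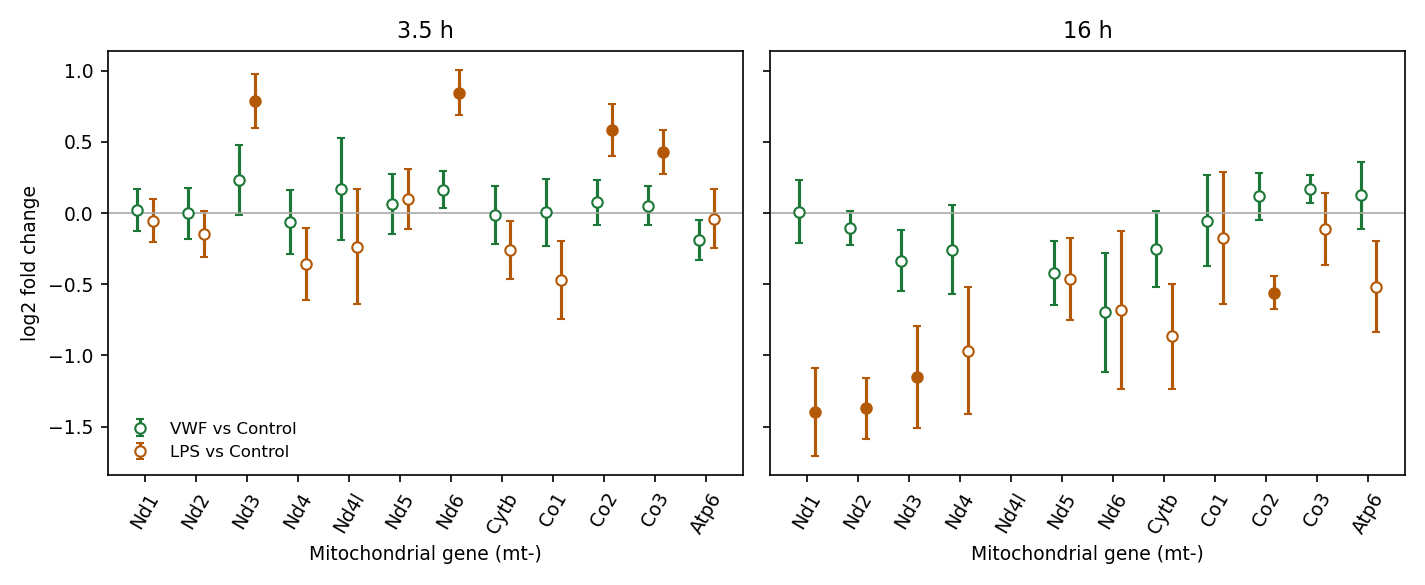
Log2 fold change (± SE) of each mitochondrial gene tested, with VWF (green) and LPS (orange) against Control at 3.5 h (left) and 16 h (right). Filled points had an adjusted p under 0.05. At 16 h mt-Nd1 and mt-Nd2 lie at -1.40 and -1.37 with LPS and mt-Co1 at -0.17, and no VWF point is filled.

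The ratio of 2 transcripts within a culture needs no scaling between libraries. The counts of mt-Nd1 over those of mt-Co1 gave 0.353, 0.312, 0.315, 0.279 and 0.464 in Control at 16 h, 0.320, 0.344, 0.293, 0.456 and 0.317 with VWF, and 0.115, 0.142, 0.131 and 0.245 with LPS. All LPS cultures lay below all Control and VWF cultures. At 3.5 h the LPS cultures had been between 0.207 and 0.393, and the Control cultures between 0.159 and 0.264. Other ratios to mt-Co1 parted less clearly at 16 h. That of mt-Nd2 reached 0.108 with LPS, just below the lowest Control (0.110) and VWF (0.112) cultures. Those of mt-Cytb and mt-Nd6 overlapped between LPS and Control. A ratio within a library shows unequal change of both genes and not which of them moved.

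The change of the LPS effect between 3.5 h and 16 h was tested as an interaction. Called or not, it was negative for 67 of 73 nuclear and 11 of 12 mitochondrial genes tested, and for 4362 of all 8748. It was called for 10 nuclear and 5 mitochondrial genes, all negative (48.8% of all genes tested were called, 25.0% higher and 23.8% lower). The values were -1.93 ± 0.40 for mt-Nd3, -1.52 ± 0.60 for mt-Nd6, -1.32 ± 0.35 for mt-Nd1, -1.21 ± 0.28 for mt-Nd2 and -1.14 ± 0.22 for mt-Co2. The gene mt-Nd6 stood at 2269 CPM in Control replicate 5 at 16 h against 563 to 652 CPM in the other 4, and without that culture its value was -0.87 (adjusted p = 0.0863). Leaving out LPS replicate 4 at 16 h raised the nuclear count from 10 to 42, and the calls over all genes from 4267 to 4880. The short genes outside the members had a median of -0.34. The VWF effect differed between the times for 2 nuclear genes, Atp5c1 and Cox6a2, where 32.6% of all genes were called, 15.9% higher and 16.6% lower. With the short-gene covariate 15 nuclear genes were called, 9 higher and 6 lower, and 1 mitochondrial gene, lower. Library size alone gave 6, of which 5 were higher, and scaling by median of ratios 1. Of all 8660 genes tested, the covariate fit called 4432, library size alone 2770 and median of ratios 2810.

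Among the nuclear genes, LPS at 16 h gave 3 higher and 6 lower of 73 tested, with a median of -0.09. Lower were Atp5g1 and Atp5g2, a pair of genes for the same c subunit of the ATP synthase ring, together with Ndufs1, Ndufs8 and Ndufa12 of complex I. Ndufa4, which is counted with complex I by its symbol, was lower too. Atp5g1 stood at 128, 108, 110, 115 and 164 CPM in Control and at 65.4, 84.5, 69.1 and 102 CPM with LPS, which do not overlap, and its log2 fold change was -0.60 ± 0.18 (adjusted p = 0.0179). It was called in 7 of 9 fits that left out 1 culture, and not without LPS replicate 1 (-0.51, adjusted p = 0.0566) or LPS replicate 3 (-0.53, adjusted p = 0.0531). The call of Ndufa12 was lost without the same cultures. Atp5g2 fell by 0.57 ± 0.11 on the log2 scale (adjusted p = 0.0013). A processed copy, Gm10175, shares 33.1% of its 150-base stretches, which makes its value uncertain. The partner Atp5g3 had -0.08 ± 0.31 (adjusted p = 0.857). Ndufs1 was at 65.5, 69.3, 66.9, 68.6 and 52.2 CPM in Control and 41.1, 44.8, 45.2 and 36.2 CPM with LPS, for a log2 fold change of -0.59 ± 0.11 (adjusted p = 0.00142), without overlap as at 3.5 h. Its exons overlap by 6.16% with genes on the other strand.

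With library size alone, 35 nuclear genes were lower and 0 higher, and the median over all genes moved to -0.57. In that fit 5395 of all 7994 genes tested were called. The 3 genes that were higher with LPS at 16 h were Ndufs4, Cox5a and Cox6a2. Ndufs4, an accessory subunit needed for a stable complex I, was at 64.5, 54.4, 57.3, 55.5 and 128 CPM in Control and 101, 129, 92.9 and 229 CPM with LPS, for a log2 fold change of 0.98 ± 0.35 (adjusted p = 0.0408). It overlapped through Control replicate 5 and is named, like Ndufs8, after its values were seen. Cox6a2 rose from between 2.54 and 4.08 CPM to between 4.31 and 5.32 CPM (0.62 ± 0.19, adjusted p = 0.0212), a call lost without Control replicate 3 or LPS replicate 3. With the short-gene covariate, 24 nuclear genes were called, 7 higher and 17 lower, and 8 mitochondrial genes, all lower. Leaving out Control replicate 5 and LPS replicate 4, the extreme cultures of short genes, gave 22 nuclear genes, 5 higher and 17 lower, and 9 mitochondrial ones, all lower. Of all genes tested, the covariate fit called 6060 of 7994 and the fit without both cultures 5910 of 7861.

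The VWF and LPS cultures of 16 h were also compared directly, with the same LPS cultures as above. Compared with LPS, VWF cultures had 9 nuclear genes higher and 2 lower of 73 (60.5% of all genes were called, 29.5% higher and 31.0% lower), and 6 mitochondrial genes higher of 11. mt-Nd1 was higher by 1.46 ± 0.22 (adjusted p = 0.000236) and mt-Nd2 by 1.32 ± 0.20 (adjusted p = 0.000275), with every VWF culture above every LPS culture for both. mt-Nd3, mt-Co2, mt-Atp6 and mt-Cytb followed with 0.87, 0.73, 0.69 and 0.66, and mt-Nd3 kept its call in 4 of 9 fits that left out 1 culture. Of the nuclear genes, Atp5g1 (0.93 ± 0.17, adjusted p = 0.000886), Ndufa12 (0.76 ± 0.14, adjusted p = 0.00108) and Atp5g2 (0.73 ± 0.12, adjusted p = 0.000561) had the largest differences without overlap, and Cox6a2 was lower by 0.77. Same-numbered cultures deviated together in this comparison, though the labels name no pairs. Replicate 4 also stood high for short genes in both groups (0.46 with VWF and 0.53 with LPS). With the replicate block, which takes the numbers as pairs, 33 nuclear genes were called, 31 higher and 2 lower with VWF, and 7 mitochondrial ones. Of all 7574 genes tested, that fit called 5622. Without LPS replicate 4 the nuclear count was 34, and 5205 of all 7548 genes tested were called.

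Time in culture without a stimulus was a comparison of its own. Control cultures at 16 h had 15 of 73 nuclear genes higher than at 3.5 h and none lower (41.1% of all genes were called, 20.7% higher and 20.5% lower), and of the mitochondrial genes mt-Nd3, which kept its call in 3 of 10 fits that left out 1 culture. These counts moved with the fit. With the short-gene covariate 14 nuclear genes were higher and 8 lower, and without Control replicate 5 at 16 h 20 were higher and 1 lower. Of all genes tested, these fits called 3764 of 8333 and 4342 of 8237. DESeq2 gave 27, all 6 groups in 1 fit 34 and no filter 9, all higher. Cox6a2 went from 0.898, 0.713, 1.20, 0.423 and 0.490 CPM to 4.08, 3.07, 2.82, 3.40 and 2.54 CPM, a log2 fold change of 2.09 ± 0.31. It was under 10 TPM in every culture at 3.5 h and passed the filter only through cultures at 16 h, so this difference and its change with VWF over time are given as a description. Without a filter the log2 fold change was 2.03 and the gene was called as well. Its exons overlap by 10.3% with those of Itgad on the other strand, and strand use in counting is not given in the sources used here. The VWF cultures already held 1.44 to 2.08 CPM of Cox6a2 at 3.5 h, above every Control culture of that time, and its log2 fold change with VWF at 16 h less that at 3.5 h was -1.45 ± 0.34, which was also called without a filter. Cox7a1, the other muscle form, was higher by 1.38 ± 0.38 (adjusted p = 0.0145) at low levels of 1.60 to 13.1 CPM. The short genes outside the members had a median of 0.37 in this comparison, and the nuclear members 0.56.

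**Figure D5:**
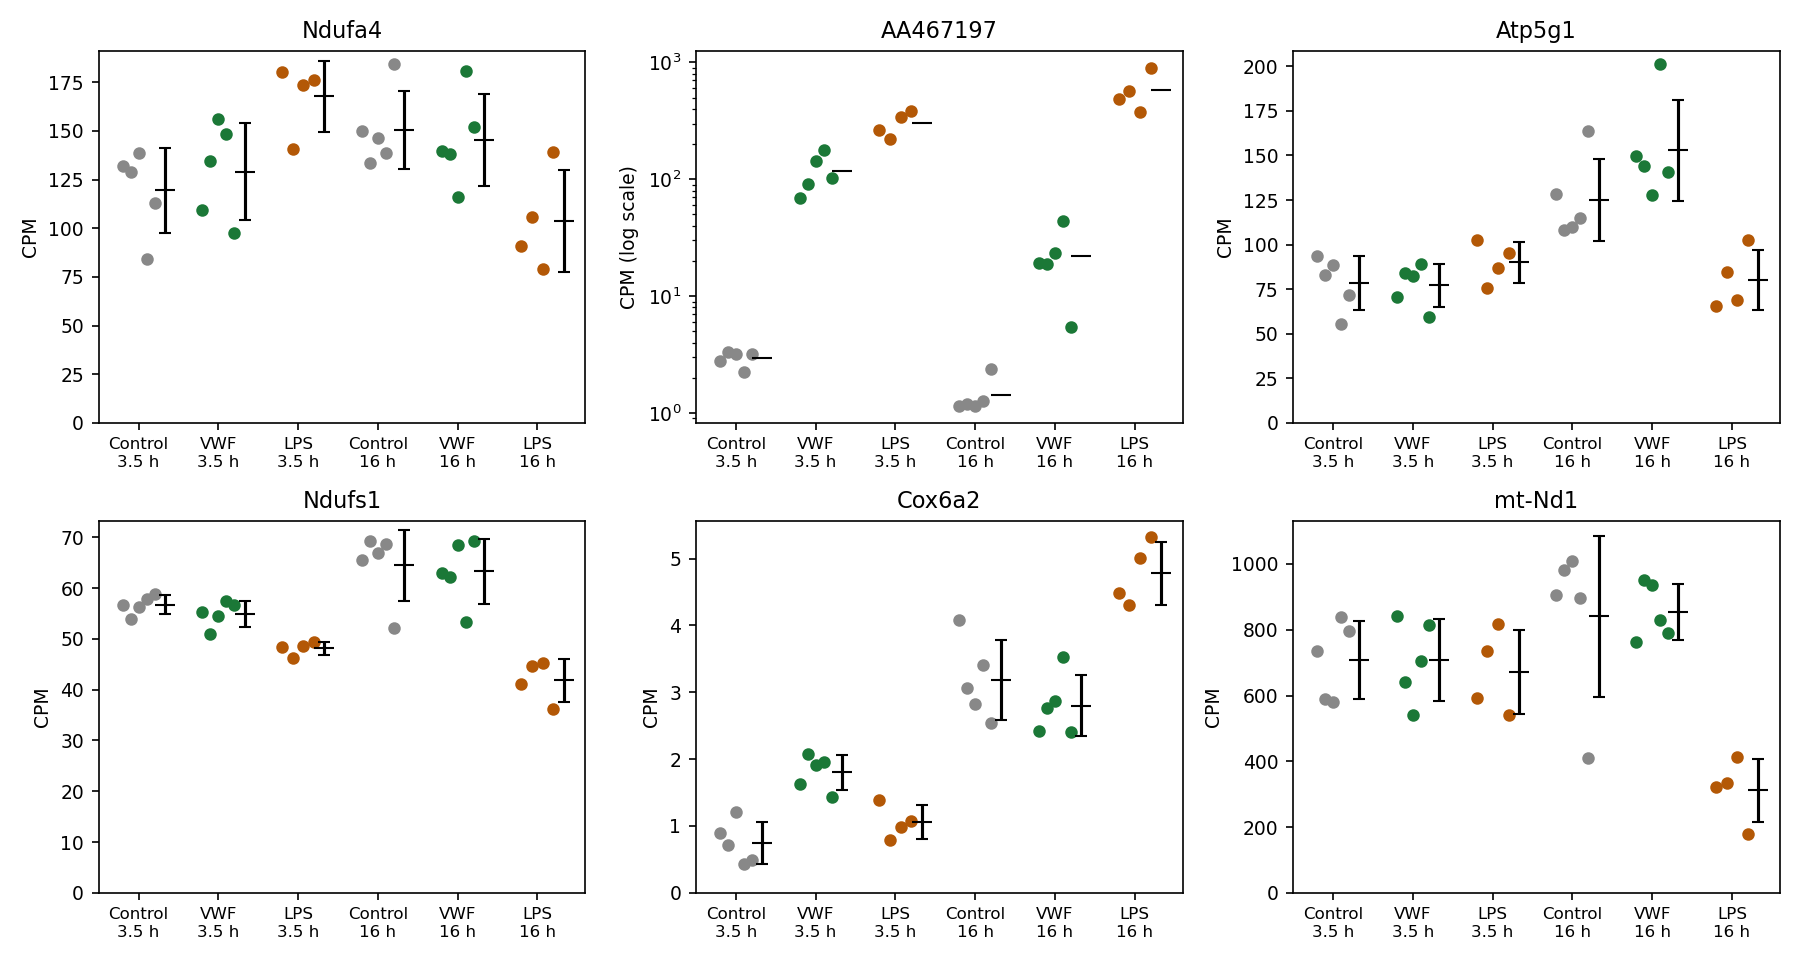
CPM of Ndufa4, its paralogue AA467197 (log axis), Atp5g1, Ndufs1, Cox6a2 and mt-Nd1 in each culture of the 6 groups. Points are cultures and bars are means ± SD (mean alone for AA467197). LPS cultures at 16 h lie lowest for Ndufs1, at 36.2 to 45.2 CPM, and AA467197 rises from between 1.15 and 3.33 CPM in Control to 901 CPM.

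Ndufa4 showed a turn with time. With LPS it was higher than Control at 3.5 h (0.51 ± 0.15, adjusted p = 0.011) and lower at 16 h (-0.50 ± 0.18, adjusted p = 0.0389), and the difference was -1.0 ± 0.24 (adjusted p = 0.00206). Its cultures were at 150, 133, 146, 139 and 185 CPM in Control at 16 h and at 90.8, 106, 79.1 and 139 CPM with LPS, with an overlap at LPS replicate 4, and the call at 16 h was kept in 2 of 9 fits that left out 1 culture. Ndufa4 is named for complex I and is known today as a subunit of complex IV. Counted with complex IV, it left medians at 3.5 h with LPS of 0.47 in complex I and 0.61 in complex IV. Before the move these were 0.48 and 0.65. AA467197, which is no member, is known as the Ndufa4 paralogue NMES1 and as the host of a microRNA, miR-147. Control cultures of both times stayed under 10 TPM, so this gene passed the filter only through stimulated cultures and its values are given as a description. It was at 2.80, 3.33, 3.19, 2.27 and 3.17 CPM in Control at 3.5 h, at 69.6, 91.3, 143, 178 and 103 CPM with VWF and at 263, 222, 338 and 382 CPM with LPS, log2 fold changes of 5.32 ± 0.27 and 6.70 ± 0.20. At 16 h the VWF cultures had 19.1, 18.9, 23.3, 44.0 and 5.49 CPM and the LPS cultures 484, 570, 380 and 901 CPM, against 1.15 to 2.37 CPM in Control. The groups did not overlap at either time.

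The 5p arm of the microRNA in that gene is shown because the host gene rose with both stimuli at both times. This arm lies at chr2:122640814-122640837 (RefSeq, GRCm38.p6, plus strand), and capitals mark its seed, bases 2 to 8. The other arm had no entry in the source used and is not printed, so the seed shown is that of the 5p arm alone. The microRNA itself was not measured here.
mmu-miR-147-5p: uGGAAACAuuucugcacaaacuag

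Promoters of nuclear members hold motifs known from respiratory chain genes. RefSeq (GRCm38.p6) promoters of 300 bases, from 250 before to 50 after the start, were found for 66 of the 82 nuclear genes, 71 promoters in all, and set beside all 32851. On either strand the NRF1 palindrome, printed in capitals for Uqcrc1 below, was in 7.04% of member promoters and 0.971% of all. Its looser form, with any base at the sixth place and so including the former, was in 22.5% and 4.60%, the YY1 site AAGATGGC in 14.1% and 2.75%, the ETS site CCGGAAG in 19.7% and 8.86%, and the CREB site TGACGTCA in 5.63% and 1.79%. The NF-kappaB consensus site was in 0 of 71 and in 0.155% of all. A match describes letters only.

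For 4 of the members called at 16 h, the 30 bases around the match are given with the site in capitals, 5′ to 3′ on the strand of the gene. Atp5c1 and Uqcrc1 rose with VWF, Atp5g2 fell with LPS and Ndufs4 rose with LPS. The first 3 sequences hold the NRF1 site or its looser form and the last the YY1 site. Ndufs8, lower with LPS, holds the ETS site and is not printed, and the promoters of Cox5a, Ndufa12, Atp5g1 and Ndufa4 held none of the motifs searched. Atp5c1 has 2 promoters in the table, of which 1 holds the site.
Atp5c1 (chr2:10080430-10080459, minus strand): ctgagctcccGCGCACGCGCactgagtccc
Uqcrc1 (chr9:108936668-108936697, plus strand): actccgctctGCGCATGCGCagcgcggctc
Atp5g2 (chr15:102671070-102671099, minus strand): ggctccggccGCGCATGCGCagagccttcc
Ndufs4 (chr13:114388045-114388074, minus strand): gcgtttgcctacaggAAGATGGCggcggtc

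Genes around the complexes were read as lists. Their counts stand beside those over all genes tested, of which 27.3% were higher and 26.4% lower with LPS at 16 h, 13.1% and 14.7% with VWF at 16 h, 31.8% and 33.9% with LPS at 3.5 h, and 22.3% and 21.3% with VWF at 3.5 h. Of the 4 genes of complex II, the succinate dehydrogenase, 1 was called with VWF at 16 h, Sdhb, its iron-sulfur subunit (0.59 ± 0.14, adjusted p = 0.0101), and 0 with LPS at either time. Of 7 tested electron carriers and remaining subunits outside the rule, 3 were higher and 1 lower with LPS at 3.5 h. With LPS at 16 h 1 was higher and 2 were lower. VWF gave 1 higher at 3.5 h and 2 higher at 16 h, and 0 lower at either time. From this list Cycs, the cytochrome c that carries electrons from complex III to IV, rose in all 4 comparisons with Control. It was at 71.1, 66.6, 72.0, 59.2 and 58.7 CPM in Control and 146, 136, 161 and 174 CPM with LPS at 3.5 h (1.25 ± 0.11, adjusted p = 1.21e-06), and at 101, 92.9, 82.0, 80.8 and 78.6 CPM against 330, 339, 264 and 357 CPM at 16 h (1.93 ± 0.12, adjusted p = 1.08e-06). With VWF its log2 fold changes were 0.43 ± 0.11 (adjusted p = 0.00945) and 0.63 ± 0.10 (adjusted p = 0.000579).

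Of 17 tested genes for transcription, copying and RNA stability of mitochondrial DNA, 3 were higher and 7 lower with LPS at 16 h, and 3 higher and 1 lower with VWF. Lrpprc, which stabilises mitochondrial mRNAs, was at 46.7, 49.4, 46.7, 45.4 and 66.2 CPM in Control, 54.3, 57.9, 59.1, 57.0 and 62.1 CPM with VWF and 20.1, 15.9, 21.2 and 26.7 CPM with LPS. Its log2 fold change with LPS was -1.24 ± 0.18 (adjusted p = 0.000309). Tfb2m, a transcription initiation factor, fell by 1.49 ± 0.18 (adjusted p = 7.23e-05), Polrmt, the mitochondrial RNA polymerase, by 1.01 ± 0.25 (adjusted p = 0.0073), and Tfam, which packs the DNA, by 0.32 ± 0.09 (adjusted p = 0.0158). Pnpt1, an RNA-degrading enzyme of mitochondria, went the other way, by 1.57 ± 0.10 (adjusted p = 8.47e-07). At 3.5 h with LPS, Polrmt had fallen by 1.09 ± 0.13 and Tfb2m by 0.77 ± 0.12, and Tfam was higher by 0.48 ± 0.09.

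Assembly factors put the subunits together. Of 22 tested factors for complexes III, IV and V, 6 were higher and 2 lower with LPS at 16 h, and 3 higher with VWF. Sco1, a copper chaperone of complex IV, was at 13.0, 12.1, 11.5, 11.7 and 14.6 CPM in Control and at 78.8, 78.1, 69.2 and 93.4 CPM with LPS (2.70 ± 0.12, adjusted p = 1.29e-07), against 12.7 to 14.9 CPM with VWF. Coa5, another factor of complex IV, rose by 2.01 ± 0.18 with LPS and 0.45 ± 0.13 with VWF. Of 12 tested factors for complex I, 3 were higher and 3 lower with LPS at 16 h. Tmem126b of complex I was lower at 3.5 h with both stimuli, from between 19.5 and 24.0 CPM in Control to between 7.18 and 9.70 CPM with VWF and between 5.22 and 9.70 CPM with LPS.

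Of 76 tested proteins of the mitochondrial ribosome, which translates the 13 mRNAs, 25 were higher and 9 lower with LPS at 3.5 h and 10 higher and 13 lower at 16 h, while VWF gave 9 higher and 4 lower at 3.5 h and 5 higher and 0 lower at 16 h. Of the 4 genes tested for ADP/ATP carriers and uncoupling proteins, Ucp2, the uncoupling protein of leukocytes, fell at 3.5 h with VWF (-0.44 ± 0.15, adjusted p = 0.038) and LPS (-0.86 ± 0.18, adjusted p = 0.00134). Of 9 tested nuclear regulators of mitochondrial genes, 4 were higher and 3 lower with LPS at 3.5 h, and 6 higher and 1 lower with VWF. At 16 h 7 were tested, with 2 higher and 4 lower with LPS and 3 higher and 2 lower with VWF. Ppargc1b of this list, a coactivator of mitochondrial genes, was not tested under the 10 TPM filter. It was at 14.6, 18.0, 13.0 and 15.3 CPM with LPS at 3.5 h against 1.21 to 2.29 CPM in Control, and at 1.70 to 3.19 CPM with VWF.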

How the data were processed

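RNA of 28 BMDM cultures was sequenced by the authors as paired-end reads, which they aligned to GRCm38 (mm10) and counted with STAR. The deposited table holds raw read counts per gene, 1 column per culture. The version, strand use and treatment of reads with several matches are details not given in the sources used here. Gene names came from GENCODE M21, which matched 54495 of 54532 genes. Columns were assigned to groups by the sample labels.

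Genes at 10 TPM or more in any culture compared were tested with edgeR 4.0.16 (quasi-likelihood, TMM, R 4.3.3), separately for each comparison, with Benjamini-Hochberg adjustment and a threshold of 0.05. The effect of time on a treatment was an interaction term. CPM values use TMM over all 28 cultures. Fold changes use each comparison's own scaling, and summed levels were compared as log2 CPM. A pseudocount of 0.5 was added to the values of single genes before medians of log2 CPM were taken over members or short genes. The tests were tried on simulated data with known changes. Against Control, 1.5-fold changes were found in 53.3% for LPS at 3.5 h, 35.4% for VWF at 16 h and 4.4% for LPS at 16 h. For the change of the LPS effect with time the share was 5.49%. At 2-fold the shares were 90.4%, 78.1%, 45.4% and 43%, in the same order. Few genes were changed in the simulation. For LPS at 3.5 h these were 90 and 94 of 7201 genes, at 1.5-fold and 2-fold, where 5384 of 8190 were called in the data. Noise was drawn for each gene alone, without the shift of short genes between cultures. The shares are therefore not the power of the tests on these data. The 52 pairs of cultures within groups all differed by more than sampling noise.

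Named were all mitochondrial genes, up to 3 nuclear genes per direction and comparison with the largest called change and no overlap, isoforms, the highest nuclear gene of each complex, up to 3 called per interaction, and from the pathway lists AA467197, complex II, Cycs, Tfam, Ppargc1b, Ucp2 and genes called past 2-fold. Some results of this rule and of the marker lists are not reported here. Members and lists were chosen with earlier results of these data known. Only for VWF against LPS at 16 h did all same-numbered cultures deviate together (r of 0.18 to 0.84 over 4 pairs). The labels name no pairs, so whether the numbers mark pairs is not known. Alternatives were DESeq2 1.42.0, other scalings and filters, all 6 groups in 1 fit, a replicate block, a 2-fold limit and leaving out each culture. Chosen after seeing the data were a covariate for short genes (under 1500 exon bases against 6000 or more) and leaving out 2 libraries that stood apart. These were Control replicate 5 and LPS replicate 4 at 16 h, each left out where a comparison held it. Counting intervals are not given, since the spread between cultures was far wider.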

Additional observations from a re-analysis of the deposited data

Results flagged for a closer look

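For each gene named here and summed level, the highest and lowest culture of every group was set against the others with Dixon's ratio. A culture stood apart in 40 of 246 groups examined, 16.3%, where chance gives about 1 in 20. Control replicate 5 at 16 h accounted for 27 of them, VWF replicate 4 at 16 h for 6 and LPS replicate 4 at 16 h for 2.

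In Control replicate 5 at 16 h the summed nuclear level was 20838 CPM, against 9121 to 10420 CPM in the other 4. The complex I genes Ndufa2 (800.1 CPM), Ndufa5 (242), Ndufa11 (182) and Ndufb11 (216) stood high, as did Uqcr11 of complex III (402 CPM). In complex IV this held for Cox4i1 (1662 CPM), Cox6a1 (920.1), Cox6b1 (657), Cox7a1 (13.1), Cox7a2 (359), Cox7a2l (526) and Cox7c (785), and in complex V for Atp5g3 (404 CPM) and Atp5k (237). Low in the same culture were the nuclear genes Ndufs1 (52.2 CPM), Cox8a (151) and Atp5c1 (151). Of its mitochondrial genes, mt-Nd1 (410 CPM), mt-Nd2 (264), mt-Nd4 (88.5), mt-Cytb (279), mt-Co1 (883) and mt-Atp6 (4.50) were low, and mt-Nd4l (0.750 CPM), mt-Nd5 (1031) and mt-Nd6 (2269) high.

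VWF replicate 4 at 16 h stood high for Ndufa2 (305 CPM), Ndufa5 (125), Uqcr11 (214), Cox4i1 (1047), Cox6a1 (653) and Cox6b1 (452). LPS replicate 4 at 16 h was high for mt-Nd3 (3.68 CPM) and low for mt-Atp6 (3.65), and LPS replicate 3 high for mt-Co3 (31.3). Single cultures stood apart for Ndufa4 in LPS replicate 2 at 3.5 h (141 CPM, low), Uqcrc1 in Control replicate 2 at 16 h (201, low), Atp5a1 in VWF replicate 5 at 3.5 h (525, high) and Atp5g2 in Control replicate 4 at 3.5 h (125, low). What set these cultures apart was not tested.

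The effect of a stimulus differed between 3.5 h and 16 h by the interaction term for the following genes. With VWF these were Cox6a2 (-1.45 on the log2 scale, a gene that passed the filter only through cultures at 16 h) and Atp5c1 (0.37). With LPS they were mt-Nd3 (-1.93), mt-Nd6 (-1.52), mt-Nd1 (-1.32), mt-Nd2 (-1.21) and mt-Co2 (-1.14) of mitochondrial DNA. Of the nuclear genes they included Ndufb11 (-1.09), Ndufa12 (-0.77), Ndufv1 (-0.50) and Ndufs1 (-0.36) of complex I, and Ndufa4 (-1.0), counted there by its symbol. Uqcrc1 (-0.41) of complex III was another, as were Atp5g1 (-0.81), Atp5g2 (-0.80) and Atp5a1 (-0.31) of complex V.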

How the results depend on the processing

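Counts of members called are given as nuclear and mitochondrial ones, and a count within 1.5 times the reported one is not repeated. The calls over all genes also moved between fits, so these counts do not by themselves show a change particular to the members. With library size alone in place of TMM they were 4 and 1 for VWF and 13 nuclear for LPS at 3.5 h, 6 and 1 between both, 35 and 8 for LPS at 16 h, 43 nuclear between VWF and LPS at 16 h, and 6 nuclear for the change of the VWF effect with time. That scaling moved the median of all genes by more than 0.1 in 6 comparisons, to -0.22 for VWF and -0.54 for LPS at 3.5 h, 0.30 between both, -0.57 for LPS and 0.44 between VWF and LPS at 16 h, and 0.14 for the change of the VWF effect. It gave log2 differences of the summed nuclear level of -0.0082 for LPS at 3.5 h, -0.14 for VWF against LPS at 3.5 h, -0.60 for LPS at 16 h and 0.61 for VWF against LPS at 16 h, and of the mitochondrial sum of -0.69 (LPS at 3.5 h), -1.11 (LPS at 16 h) and 0.88 (VWF against LPS at 16 h). Scaling by median of ratios left 1 nuclear call in the change of the VWF effect. The median over members in place of the sum gave -1.23 (LPS) and 1.13 (VWF against LPS) for mitochondrial genes at 16 h, and 0.79 for the mitochondrial to nuclear ratio.

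DESeq2 called 2 nuclear members for VWF at 3.5 h, 7 for VWF at 16 h, and 27 and 2 for Control over time. The filterByExpr filter gave 2 for VWF at 3.5 h, 8 for VWF at 16 h and 0 mitochondrial ones for Control over time. Without a filter there were 1 for VWF at 3.5 h, and 9 and 0 for Control over time. All 6 groups in 1 fit gave 21 and 2 for LPS at 3.5 h, 5 and 1 for VWF against LPS at 3.5 h, 7 mitochondrial ones for LPS at 16 h and 34 nuclear ones for Control over time. A 2-fold limit left 0 and 0 for both LPS comparisons at 3.5 h, 0 nuclear for the 3 comparisons at 16 h, 2 mitochondrial for VWF against LPS at 16 h, 3 and 0 for Control over time, and 1 and 2 nuclear for the changes of the VWF and LPS effects.

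With the replicate block, counts were 30 nuclear for LPS at 3.5 h, 11 for VWF against LPS at 3.5 h, 1 for VWF at 16 h, 5 and 7 for LPS at 16 h, 33 nuclear for VWF against LPS at 16 h and 0 mitochondrial for Control over time. Only for VWF against LPS at 16 h did all same-numbered cultures deviate together, and the labels name no pairs in any comparison. The short-gene covariate gave 16 and 1 for VWF and 15 nuclear for LPS at 3.5 h, 1 and 0 between both, 23 and 2 for VWF, 24 and 8 for LPS and 46 nuclear between both at 16 h, 2 mitochondrial for Control over time, 15 and 1 for the change of the VWF effect and 16 and 8 for that of the LPS effect. Without the 2 libraries that stood apart, counts were 21 and 2 for VWF, 22 and 9 for LPS and 34 nuclear between both at 16 h, 3 mitochondrial for Control over time and 37 nuclear for the change of the LPS effect. Only LPS against Control at 16 h and the change of the LPS effect held both libraries. The other counts come from leaving out a single culture and are no separate check.

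Leaving out each culture in turn gave nuclear counts of 0 to 1 for VWF and 25 to 55 for LPS at 3.5 h, 6 to 56 between both, 2 to 21 for VWF, 4 to 10 for LPS and 9 to 34 between both at 16 h, 11 to 21 for Control over time, 1 to 3 for the change of the VWF effect and 8 to 42 for that of the LPS effect. Mitochondrial counts were 2 to 4 for LPS and 1 to 3 for VWF against LPS at 3.5 h, 0 to 2 for VWF, 3 to 7 for LPS and 4 to 7 between both at 16 h, and 0 to 3 for Control over time.

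Signs turned for the following genes. With LPS at 3.5 h, library size alone gave mt-Co3 -0.085, Ndufa4 -0.0083, Uqcrc1 -0.21, Cox7b -0.025, Cox8a -0.30, Atp5a1 -0.25, Atp5c1 -0.37, Atp5g2 -0.27 and Atp5g3 -0.045, and the short-gene covariate Cox8a -0.0032 and Atp5c1 -0.029. Atp5c1 between VWF and LPS at 3.5 h became 0.20 and 0.097 under these settings, and with LPS at 16 h -0.52 with library size alone, -0.023 with all groups in 1 fit, -0.034 with the replicate block, -0.038 without Control replicate 5 and -0.048 without both libraries. Ndufa11 with VWF at 16 h became 0.0016 (filterByExpr), 0.025 (no filter), 0.13 (replicate block), 0.48 (without Control replicate 5), 0.038 and 0.012 (without VWF replicate 3 and 5). Ndufb11 in Control over time became -0.28 and mt-Co1 in the change of the LPS effect -0.57 with the short-gene covariate. Leaving out single cultures gave -0.20 to 0.48 for Ndufa11 with VWF and -0.038 to 0.061 for Atp5c1 with LPS at 16 h. Of 326 named gene results, 86 were called, and among those not called 485 of 5178 alternative values changed sign. The causes were not tested.

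Library totals were 41131209 counts or more in every culture, so the spread between cultures weighed more than counting error, with pairs of cultures within a group differing by 24.9 to 1237 times what sampling gives (chi-square per degree of freedom). With 4 or 5 cultures a group, changes that missed the threshold are not shown to be absent, whatever their size.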
